A study of Rattus norvegicus with 19 samples.

Results

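A set of 52 genes of the cell cycle and of DNA replication were read out of whole-thymus expression arrays of rats gavaged with saline or corn oil. The genes were fixed by name, and a probe belonged to one of them when its transcript accession matched that gene's RefSeq symbol. Of the 52, 47 had at least 1 matched probe, and all 47 passed the filter on dim probes and were tested among 22660 genes. Mcm3, Mcm5, Cdk6, Top2a and Bub1b had no matched probe and have no value here. The 47 were represented by 56 probes, because 9 genes had 2 probes each. Every one of the 47 was well above background on each array that gave it a value, and 41 had a value on all 19 arrays.

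All rats were Wistar females aged 7 weeks, gavaged once a day for 14 days. One group received saline at 10 ml/kg (5 arrays), and the others received corn oil at 2 ml/kg (5 arrays), 5 ml/kg (4 arrays) or 10 ml/kg (5 arrays). Saline was given only at 10 ml/kg, so that volume is the only one at which liquid was compared with the volume held equal. Groups held 6 rats, caged 3 together, per the labels, which do not name the cage of an array. The replicates numbered in the labels were taken as different animals, and the p-values measure only the spread between these samples. The question of the study was what corn oil, a vehicle used in toxicology, does to thymus gene expression.

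The thymus is the organ in which T cells mature, and its dividing cells are mainly immature thymocytes. Progress through the cell cycle is driven by cyclin-dependent kinases. D-type and E-type cyclins with their kinases release E2F transcription factors from the retinoblastoma protein, and E2F then drives genes of DNA replication. Later in the cycle FOXM1, NF-Y and the DREAM and MuvB complexes act on the mitotic genes, many of which carry a cell cycle homology region (CHR) in the promoter. Kinase inhibitors such as the products of Cdkn1a and Cdkn1b hold cells back. In whole tissue, fewer dividing cells and less RNA per cell cannot be told apart.

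Promoters of the S phase and mitotic members differed in the elements they hold, which is a fact of sequence and not of these arrays. RefSeq promoter windows of assembly GRCr8, 250 bases before to 50 after the start of a gene, were at hand for 40 members. The stretches printed show the elements of the S phase and the mitotic members, and the promoter of the inhibitor Cdkn1b, which passed the test. Each is the 250 bases before the start, 5′ to 3′ on the strand of the gene, and capitals mark the elements searched, on either strand: the E2F-type sites TTTCCCGC, TTTGGCGC, TTTCGCGC and TTTGCCGC, the CHR element TTTGAA and the NF-Y-type box CCAAT. Mcm6 (chr13:42404353-42404602, minus strand) and Tyms (chr9:120776084-120776333, minus strand) stand for the S phase members. Ccnb2 (chr8:79981659-79981908, minus strand) and Cdk1 (chr20:19265043-19265292, plus strand) stand for the mitotic members. Cdkn1b lies at chr4:169491254-169491503 on the plus strand.
Mcm6: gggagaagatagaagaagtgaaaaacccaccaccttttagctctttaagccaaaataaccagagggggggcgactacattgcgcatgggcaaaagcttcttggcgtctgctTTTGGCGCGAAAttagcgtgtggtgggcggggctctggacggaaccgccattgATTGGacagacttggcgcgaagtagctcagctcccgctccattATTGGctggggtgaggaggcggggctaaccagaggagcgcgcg
Tyms: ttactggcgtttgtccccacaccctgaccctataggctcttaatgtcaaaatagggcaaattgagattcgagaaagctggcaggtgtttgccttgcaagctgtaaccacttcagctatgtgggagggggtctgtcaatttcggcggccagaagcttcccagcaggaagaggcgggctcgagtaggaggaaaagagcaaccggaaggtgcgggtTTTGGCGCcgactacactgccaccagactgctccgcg
Ccnb2: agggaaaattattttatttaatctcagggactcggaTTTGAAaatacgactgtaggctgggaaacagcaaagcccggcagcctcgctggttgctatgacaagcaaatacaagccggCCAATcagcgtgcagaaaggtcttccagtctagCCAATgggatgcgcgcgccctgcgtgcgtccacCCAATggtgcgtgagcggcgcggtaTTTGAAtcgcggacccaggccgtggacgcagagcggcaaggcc
Cdk1: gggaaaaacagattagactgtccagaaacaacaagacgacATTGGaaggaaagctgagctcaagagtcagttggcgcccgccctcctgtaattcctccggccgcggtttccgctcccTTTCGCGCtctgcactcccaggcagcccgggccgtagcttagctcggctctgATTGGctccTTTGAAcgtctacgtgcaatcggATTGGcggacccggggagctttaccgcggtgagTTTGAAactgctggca
Cdkn1b: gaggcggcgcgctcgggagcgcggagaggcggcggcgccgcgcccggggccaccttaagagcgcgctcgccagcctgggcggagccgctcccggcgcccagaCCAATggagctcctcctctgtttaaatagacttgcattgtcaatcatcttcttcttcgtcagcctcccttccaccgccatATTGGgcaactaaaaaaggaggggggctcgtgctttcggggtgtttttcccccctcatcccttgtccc

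Mcm6, a subunit of the replicative helicase, held TTTGGCGC 139 bases before its start, overlapping TTTCGCGC on the other strand at 135 bases, and CCAAT on the other strand at 86 and 43 bases. Tyms, which makes thymidylate, held TTTGGCGC at 37 bases. Ccnb2, a B-type cyclin, held TTTGAA at 214 and 43 bases and CCAAT at 134, 101 and 68 bases. Cdk1, the kinase that drives entry into mitosis, held both types, with TTTCGCGC at 133 bases and TTTGAA at 72 and 16 bases. Cdkn1b held CCAAT at 148 bases, and at 68 bases on the other strand, and neither of the other elements.

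Over the 300-base windows, an E2F-type site was found in 9 of 15 S phase promoters (60%) and 1 of 17 mitotic promoters (5.88%), against 716 of 33469 promoters in all (2.14%). The CHR element was found in 1 of 15 S phase promoters (6.67%) and 11 of 17 mitotic promoters (64.7%), against 18.3% of all promoters. CCAAT was found in 9 of 15 (60%) and 14 of 17 (82.4%), against 37.5%. A match says only that the letters are there.

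**Figure D1:**
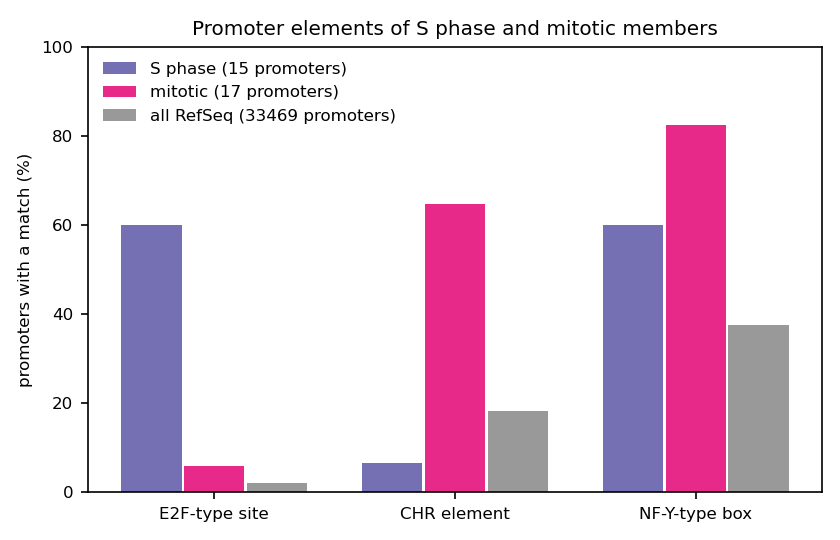
Share of promoters (percent, bars) that hold an E2F-type site, the CHR element or a CCAAT box within 300 bases, for 15 S phase members, 17 mitotic members and 33469 RefSeq promoters. E2F-type sites stand at 60% of S phase members and the CHR element at 64.7% of mitotic members.

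The arrays lay on 5 slides, each with arrays of 2 groups, and the slide counted for more than the group over the whole table. Over 21842 genes the leading principal component took 57.8% of the variance, and 98.1% of the variance of its scores lay between slides against 39.5% between groups. Between 69.7% and 88.4% of spots were well above background, and no spot was saturated. Slide 3, which held 10 ml/kg corn oil replicates 1 to 3 and saline replicate 5, had 173 to 590 non-uniform spots an array against 6 to 62 elsewhere, and 9 of the 11 missing values among the members' probes. Fits with slide as a block are therefore given beside the calls, with differences within a slide for the members where the groups share one.

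The S phase and the mitotic members varied together from animal to animal more than they differed from each other. Each member was centred on its mean over all arrays, and the median was taken over the 16 S phase members (licensing, helicase, polymerase, clamp and nucleotide genes) and the 18 mitotic members (mitotic cyclins, kinases, kinesins and checkpoint genes). These medians are log2 differences from a member's own mean, and they carry no test. In saline the S phase medians were 0.21, -0.59, 0.34, -0.29 and 0.04 for replicates 1 to 5, and the mitotic medians were 0.24, -0.41, 0.26, -0.03 and -0.10. Saline replicate 2 was the lowest array of all in both sets, and it was the lowest of its group in 35 of 47 members. It also had the highest adipocyte and B cell marker sums of all arrays. Whether these bear on its low medians was not tested. At 2 ml/kg corn oil the S phase medians were 0.02, -0.08, -0.14, 0.30 and -0.16, and the mitotic medians were -0.15, -0.21, -0.27, 0.18 and -0.15. Replicate 4 was the high array there, with the highest value of its group in 40 of 47 members.

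At 5 ml/kg the S phase medians were 0.39, 0.21, 0.17 and 0.13, and the mitotic medians were 0.40, 0.11, -0.16 and 0.16. All 4 arrays lay above 0 for S phase, and replicate 1 was the highest of the group in 38 of 47 members. At 10 ml/kg corn oil the S phase medians were -0.03, 0.27, -0.09, -0.22 and -0.04, and the mitotic medians were 0.20, 0.25, 0.03, -0.29 and -0.19. Replicate 2 was the highest of its group in 28 members and replicate 4 the lowest in 32. Every pair of groups overlapped in both medians. The widest spread was within saline, so an animal could differ from its own group by more than groups differed from each other.

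The S phase and mitotic medians had the same sign on 14 of 19 arrays. Over all arrays they spanned 0.98 and 0.81, and their difference spanned 0.59. The S phase median minus the mitotic median was -0.05 ± 0.17 (SD, n = 5) in saline, 0.11 ± 0.07 (SD, n = 5) at 2 ml/kg, 0.10 ± 0.16 (SD, n = 4) at 5 ml/kg and -0.02 ± 0.15 (SD, n = 5) at 10 ml/kg corn oil. The ranges of this difference overlapped between groups. Over the arrays of both groups on a slide, it was -0.05 ± 0.16 (SD, n = 4) on slide 3 and 0.10 ± 0.03 (SD, n = 3) on slide 5. On slide 1 it was 0.07 and -0.26 in saline, and 0.13 and 0.13 at 2 ml/kg. On slide 4 it was -0.04 and -0.18 in saline, and 0.17 and 0.12 at 2 ml/kg. The 2 ml/kg arrays thus lay above the saline arrays on both slides, which was not tested. Off these slides, saline replicate 5 was 0.13 and 2 ml/kg replicate 5 was -0.01.

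**Figure D2:**
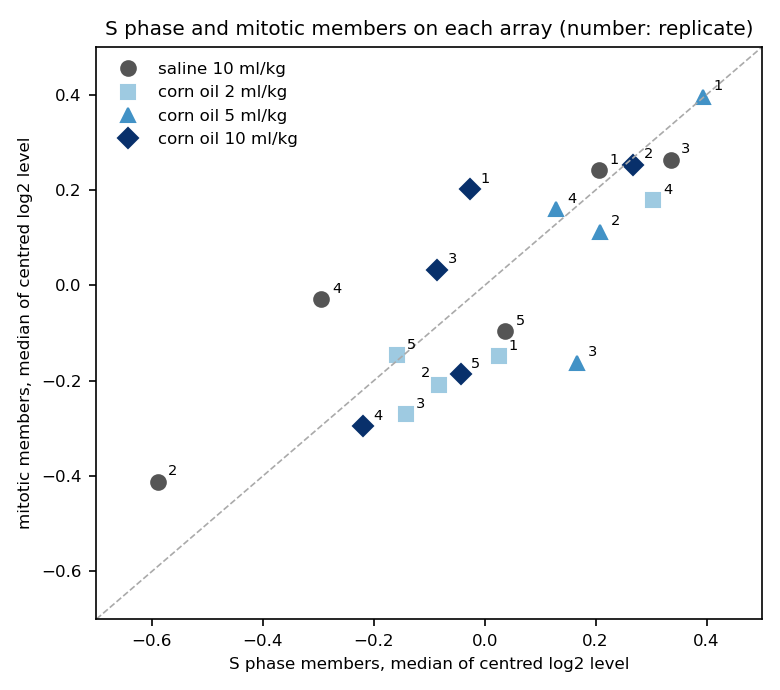
Median of the 16 S phase members (horizontal axis) against the median of the 18 mitotic members (vertical axis) on each of the 19 arrays, both in log2 units from each member's mean, with replicate numbers beside the points, groups by symbol and a dashed line where both are equal. Saline replicate 2 lies lowest on both axes, and the groups overlap.

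The members followed the slide less than other genes did. The share of a gene's variance that lay between slides had a median of 29.7% over the 47 members and 58.6% over all genes tested. The share between groups had medians of 20.8% and 28.2%. The slide took the larger share in 30 of 47 members, against 83.7% of all genes. A split into 5 slides tends to take a larger share than one into 4 groups even where neither matters. The shares that noise alone would give were not computed. The spread was mixed among the members: Rfc4, a subunit of the clamp loader, had 87.6% of its variance between slides, Ccnd3 85.2% and Tyms 78.5%, whereas Prim1, the primase catalytic subunit, had 2.49%. Ccnd1 had 54.7% between slides and 64.0% between groups. Slides and groups overlap in which arrays they hold, so these shares do not add up.

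**Figure D3:**
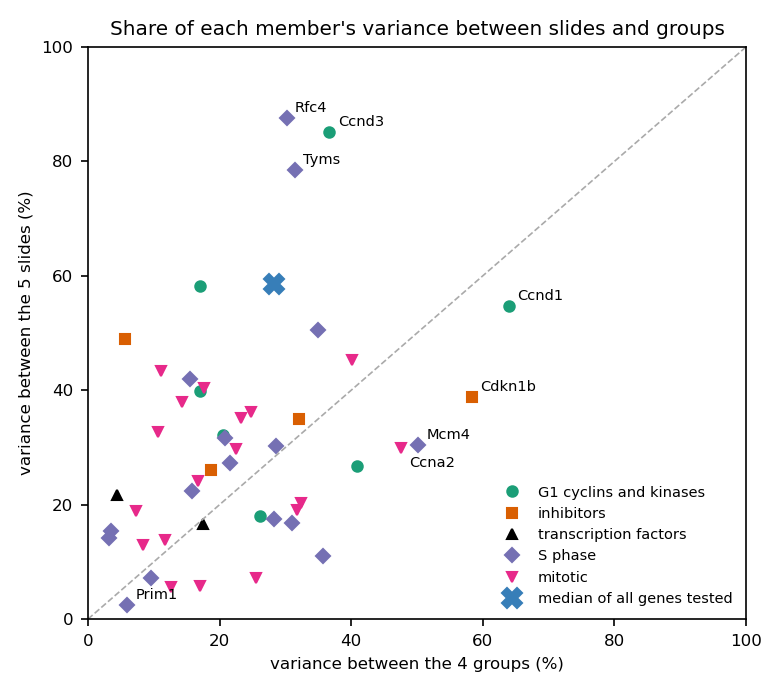
Percent of variance between the 4 groups (horizontal axis) and between the 5 slides (vertical axis) for each of the 47 members, as points by role, with a blue cross at the medians of all 22660 genes and a dashed line where both are equal. The cross lies at 58.6% between slides, and Rfc4, Ccnd3 and Tyms lie above it.

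Few members passed the test in any comparison. Differences are log2 values of the first group minus the second, with the standard error, and calls are limma's adjusted p under 0.05 over all genes. At the volume given to both liquids, 10 ml/kg corn oil against saline, 1 of 47 members passed, and it was lower in corn oil (Cdkn1b), against 6.34% of all genes (2.8% higher and 3.54% lower). At an unadjusted p under 0.05 there were 4 of 47 members, against 26.5% of all genes. No member had saline and 10 ml/kg corn oil arrays that did not overlap, against 5.42% of all genes. The median difference of the members was -0.00, with 22 of 47 above 0, and that of all genes was -0.13, with 35.5% above 0. Blocking on slide gave 35 of 47 members above 0 (median 0.07), and blocking on scan day gave 16 of 47 (median -0.05), so the split of the members depends on these blocks. Quantile scaling moved the median of all genes to 0.06 and that of the members to 0.01. Under quantile scaling 831 genes were called higher and 304 lower, against 634 and 802 in the scaling used.

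The 10 ml/kg arrays differed from the other corn oil groups in 1 member each way. Against 5 ml/kg, Ccnd1 was higher and Ccna2 lower, against 7.94% of all genes called (3.53% higher and 4.4% lower). Against 2 ml/kg, Ccnd1 was higher and Cdkn1b lower, against 12.5% (3.69% higher and 8.77% lower). Quantile scaling turned those splits over all genes to 778 higher and 388 lower against 5 ml/kg, where they were 801 and 998, and to 1504 and 560 against 2 ml/kg, where they were 836 and 1988. The shares of members called lay below the shares of all genes called in these comparisons. They rest on 1 member each way, and the counts changed between settings, so no trait of the members is read from them. At an unadjusted p under 0.05 there were 13 of 47 members against 5 ml/kg and 6 of 47 against 2 ml/kg, against 25.2% and 37.3% of all genes. These comparisons share the 10 ml/kg arrays with each other and with the saline comparison.

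No member and no gene at all passed (0%) for 5 ml/kg against saline, 2 ml/kg against saline or 5 against 2 ml/kg in limma's test. At an unadjusted p under 0.05 there were 5, 0 and 5 of 47 members, against 8.29%, 0.922% and 8.5% of all genes. Arrays of the groups overlapped in all 47 members, against 2.46%, 0.3% and 3.55% of all genes without overlap. Fits of only the groups compared also called 0 members there. No member had all arrays of 1 group above or below the other groups on the probe used. Over all genes that held for 0% with saline, 0.00883% with 2 ml/kg, 0.199% with 5 ml/kg and 2.82% with 10 ml/kg corn oil.

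**Figure D4:**
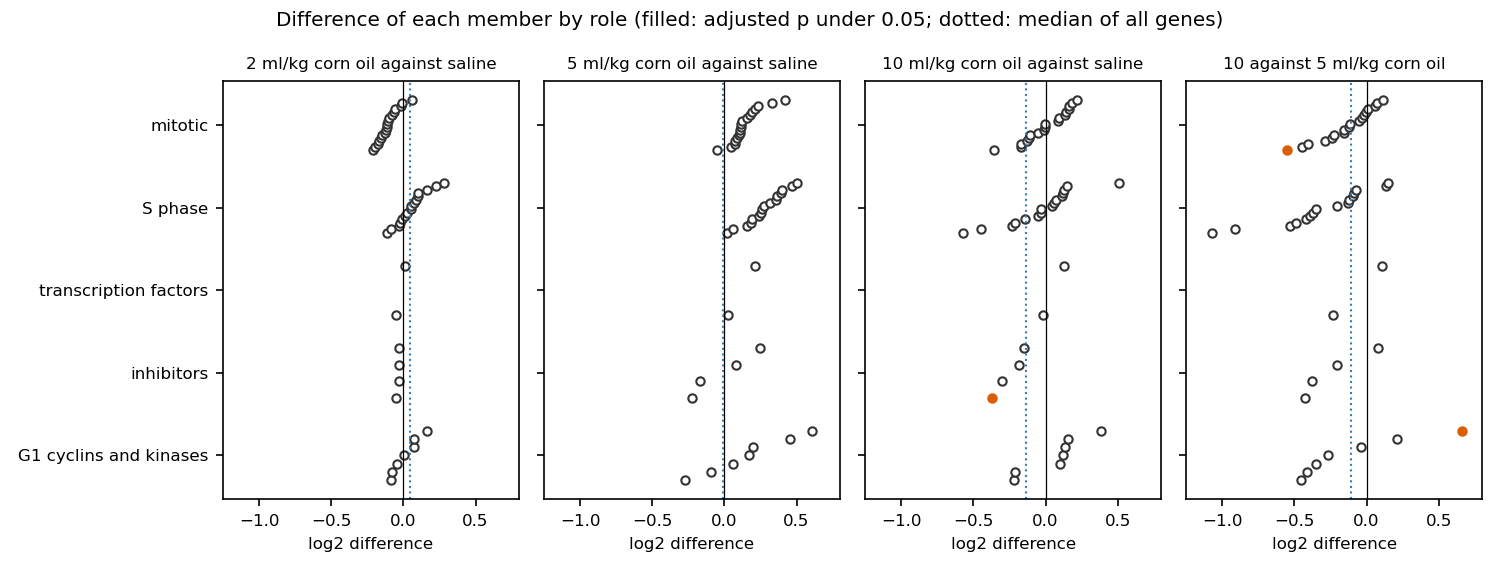
Log2 difference (horizontal axis) of each of the 47 members, as a point by role, for each corn oil volume against saline and for 10 against 5 ml/kg, with calls filled and a dotted line at the median of all genes. The filled points are Cdkn1b at -0.37 against saline, and Ccnd1 at 0.66 and Ccna2 at -0.55 against 5 ml/kg.

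Among the G1 cyclins and kinases, 7 of 8 members were measured and Ccnd1 alone passed a test. Ccnd1 encodes cyclin D1, a partner of the kinase Cdk4 in G1. Its level, as log2 intensity relative to the 75th percentile of the array, was -1.67, -1.17, -1.65, -1.85 and -1.70 in saline. It was -1.50, -1.63, -1.57, -1.73 and -1.82 at 2 ml/kg, and -2.09, -1.68, -1.75 and -2.01 at 5 ml/kg. It was -1.27, -1.14, -1.50, -1.01 and -1.20 at 10 ml/kg corn oil. The 10 ml/kg arrays lay above all 5 ml/kg and all 2 ml/kg arrays, and overlapped saline through replicate 2, the high saline array.

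Ccnd1 rose by 0.66 ± 0.14 (SE) from 5 to 10 ml/kg, a fold of 1.58 (limma adjusted p = 0.00719), and by 0.43 ± 0.13 from 2 to 10 ml/kg (limma adjusted p = 0.0404). Blocking on slide gave 0.57 and 0.43, with limma adjusted p of 0.237 and 0.364, the highest of 12 other settings that ran down to 0.00218 and 0.00588. Within slide 5, with 2 arrays at 10 ml/kg and 1 at 5 ml/kg, the difference was 0.57. The call against 5 ml/kg stayed when any 1 array was left out, and the call against 2 ml/kg was lost when any of 8 arrays was. Against saline Ccnd1 differed by 0.38 ± 0.13 (limma adjusted p = 0.0822), and by 0.39 within slide 3. Quantile scaling, normexp correction and leaving out saline replicate 2 each brought that comparison past the threshold, with limma adjusted p of 0.0199, 0.0152 and 0.0148. No other setting or left-out array did so. There limma adjusted p ran up to 0.327 over the settings and up to 0.189 over single arrays left out.

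The other D-type cyclins did not pass in any comparison. Ccnd2 ranged from -0.97 to -0.45 in saline and from -1.17 to -0.55 at 10 ml/kg corn oil, a difference of -0.21 ± 0.16 (limma adjusted p = 0.392). Ccnd3, the D-type cyclin of dividing thymocytes, was 3.03, 2.75, 3.24, 3.20 and 2.68 in saline and 2.43, 2.68, 2.51, 3.14 and 3.05 at 10 ml/kg corn oil. The lowest values, saline replicate 5 and 10 ml/kg replicates 1 to 3, all lay on slide 3, and the difference was -0.22 ± 0.15 (limma adjusted p = 0.349). Over the G1 group the difference of 10 ml/kg corn oil from saline ran from -0.22 for Ccnd3 to 0.38 for Ccnd1. At 5 ml/kg against saline it ran from -0.28 for Ccnd1 to 0.61 for Ccne2, a partner of Cdk2.

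Of the 4 inhibitors, Cdkn1b passed. Its product binds cyclin-kinase complexes and is abundant in resting lymphocytes. Its level was 2.60, 2.55, 2.39, 2.87 and 2.66 in saline and 2.57, 2.66, 2.60, 2.38 and 2.59 at 2 ml/kg. It was 2.59, 2.41, 2.34 and 2.45 at 5 ml/kg and 2.23, 2.20, 2.33, 2.04 and 2.43 at 10 ml/kg corn oil. The 10 ml/kg arrays were the lowest group, and replicate 5 reached into the range of the others.

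Cdkn1b fell by 0.37 on the log2 scale from saline to 10 ml/kg corn oil (SE 0.10, fold 1.29, limma adjusted p = 0.0281), and by 0.32 from 2 to 10 ml/kg corn oil (SE 0.10, limma adjusted p = 0.0421). Blocking on slide gave -0.39 and -0.34, with limma adjusted p of 0.251 and 0.414, the highest of the other settings, which ran down to 0.0112 and 0.0194. Within slide 3 the difference from saline was -0.41, with 3 arrays against 1. The saline call was lost on leaving out 1 array, for each of saline replicates 1 and 4 and of 10 ml/kg replicates 1, 2 and 4, with differences near the full one (-0.31 and limma adjusted p = 0.0762 without saline replicate 4). The call against 2 ml/kg was lost without any of 10 arrays. At 5 ml/kg the difference from saline was -0.17 and at 2 ml/kg it was -0.05, neither past the threshold.

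Cdkn1a, a target of p53, differed between its 2 probes. On the brighter probe, used in the fit, saline ran from 2.44 to 3.05 and 10 ml/kg corn oil from 1.72 to 3.04, a difference of -0.15 ± 0.25 (limma adjusted p = 0.708). On the other probe the level was -0.42, -0.44, -1.05, -0.61 and -0.42 in saline, -0.27, -0.63, -0.73, -0.69 and -0.19 at 2 ml/kg, and -0.60, -0.46, -0.50 and -0.58 at 5 ml/kg. It was 0.77, 0.08, 0.21, 0.08 and 0.10 at 10 ml/kg corn oil. All 5 arrays at 10 ml/kg lay above all 14 others. Of all probes tested on their own, 2.8% had the 10 ml/kg arrays apart from every other array, and this was the only one of the 56 member probes that did.

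With every probe tested on its own, this Cdkn1a probe rose by 0.84 ± 0.16 against saline, 0.78 against 5 ml/kg and 0.75 against 2 ml/kg (limma adjusted p of 0.00360, 0.00874 and 0.00674). Of all probes, 6.31%, 7.88% and 12.6% were called in these comparisons. Blocking on slide gave 0.62, 0.72 and 0.51, with limma adjusted p of 0.180, 0.181 and 0.359. The difference was 0.77 within slide 3 and 0.55 within slide 5. Averaging the gene's probes gave a difference from saline of 0.34. The difference between the probes was not tested, and the files do not say which transcripts each binds.

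The remaining inhibitors, Cdkn2c and Gmnn, did not pass in any comparison. Gmnn encodes geminin, which blocks the licensing factor Cdt1, and differed by -0.43 from 5 to 10 ml/kg (limma adjusted p = 0.385), with no value on any array of slide 3. Both transcription factors stayed within the spread of the groups. E2f1 ranged from -0.12 to 0.70 in saline and from 0.33 to 0.77 at 10 ml/kg corn oil, a difference of 0.13 ± 0.17 (limma adjusted p = 0.635). Foxm1 ranged from -0.19 to 0.53 and from -0.10 to 0.39, a difference of -0.02 ± 0.15 (limma adjusted p = 0.945). For both, saline replicate 2 was the lowest saline array.

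None of the 16 S phase members passed in any comparison. Pcna, the sliding clamp of DNA polymerase, was 3.56, 2.97, 3.85, 3.50 and 3.14 in saline and 3.00, 3.17, 3.23, 2.98 and 3.46 at 10 ml/kg corn oil. The groups overlapped through the low saline arrays, and the difference was -0.24 ± 0.15 (limma adjusted p = 0.305). At 5 ml/kg Pcna was 3.73, 3.29, 3.58 and 3.76, and the step from 5 to 10 ml/kg was -0.42 ± 0.16 (limma adjusted p = 0.109). Mcm2, a helicase subunit, was 1.81, 1.04, 1.78, 1.19 and 1.71 in saline and 1.52, 1.86, 1.58 and 1.52 on the 4 arrays at 10 ml/kg corn oil with a value. Its difference was 0.12 ± 0.16 (limma adjusted p = 0.649), and its other probe gave -0.39 (limma adjusted p = 0.261).

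Mcm4, also a helicase subunit, was 2.45, 1.71, 2.74, 2.09 and 2.34 in saline and 2.99, 2.82, 2.72, 2.53 and 2.81 at 10 ml/kg corn oil. Only saline replicate 3 reached into the range of the corn oil arrays. The difference of 0.51 ± 0.16 was the highest of the S phase members and missed the threshold (limma adjusted p = 0.0626). With normexp correction it was 0.53 (limma adjusted p = 0.0290). With slide as a block no S phase member passed in this comparison, and their lowest limma adjusted p was 0.275. The other Mcm4 probe went the other way. It was -1.39, -2.26, -0.96, -1.49 and -2.98 in saline and -7.11, -6.56, -2.14 and -2.58 on the 4 arrays at 10 ml/kg with a value. The lowest arrays in each group, saline replicate 5 and 10 ml/kg replicates 1 and 3, lay on slide 3. With every probe tested on its own, its difference was -2.78 against saline (limma adjusted p = 0.0548), -3.27 against 5 ml/kg (limma adjusted p = 0.0321) and -3.10 against 2 ml/kg (limma adjusted p = 0.0260). Its 10 ml/kg arrays overlapped no array of 5 or 2 ml/kg. Blocking on slide gave -2.75, -2.06 and -2.50, with limma adjusted p of 0.0297, 0.146 and 0.0773, so that only the saline comparison passed. The difference from saline was -3.86 within slide 3 (2 arrays with a value against 1), and that from 5 ml/kg was -0.96 within slide 5 (2 against 1). The values -7.11 and -6.56 were the lowest of any member probe, near the signal of negative control spots on those arrays. They were flagged as well above background, and the size of these differences rests largely on them.

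Tyms and Rfc4 were also low on slide 3 in both liquids. Tyms was 0.39, -0.28, 0.65, 0.17 and -1.54 in saline, with replicate 5 on slide 3. At 10 ml/kg corn oil it was -1.05, -0.47 and -0.19 on replicates 2, 4 and 5, and missing on replicates 1 and 3. At 5 ml/kg it was 0.49, 0.25, 0.14 and 0.50, and the step from 5 to 10 ml/kg was -0.91 ± 0.38 (limma adjusted p = 0.153). Rfc4 was -0.77 in saline replicate 5 against 0.40 to 1.16 in the other saline arrays. At 10 ml/kg corn oil it was -1.30 and -0.48 on slide 3, and 0.60 and 1.00 on slide 5. Over the S phase group the difference of 10 ml/kg corn oil from saline ran from -0.57 for Rfc4 to 0.51 for Mcm4, with 8 of 16 above 0. Blocking on slide brought Rfc4 to 0.005 and Mcm4 to 0.62, and gave a range from -0.28 for Mcm6, with 10 of 16 above 0 and none past the threshold.

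Of the 18 mitotic members, Ccna2 passed, in 1 comparison. It encodes cyclin A2, which partners Cdk2 in S phase and Cdk1 in G2. Its level was 2.96, 2.30, 3.12, 2.56 and 2.48 in saline and 2.79, 2.58, 2.65, 3.09 and 2.61 at 2 ml/kg. It was 3.33, 3.06, 2.97 and 3.08 at 5 ml/kg and 2.57, 2.67, 2.38, 2.47 and 2.69 at 10 ml/kg corn oil. All 5 ml/kg arrays lay above all 10 ml/kg arrays, and both overlapped saline.

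Ccna2 fell by 0.55 on the log2 scale from 5 to 10 ml/kg (SE 0.16, fold 1.47, limma adjusted p = 0.0395). The slide-blocked fit and slide 5 alone both gave -0.48, and the blocked fit gave limma adjusted p = 0.539, the highest of 12 other settings that ran down to 0.00983. The call was lost without any of 9 arrays, which were all 4 at 5 ml/kg, 10 ml/kg replicates 1 to 4 and 2 ml/kg replicate 1. The other Ccna2 probe gave -0.22 (limma adjusted p = 0.413). The groups did not overlap in 9 members from 5 to 10 ml/kg, against 11.4% of all genes. Those 9 were Ccna2, Ccnd1, Cdc6, Gmnn, Mcm6, Tyms, Lig1, Cenpa and Tpx2. Between 2 and 10 ml/kg there were 3 (Ccnd1, Tyms and Cenpa), against 10.3%. At 10 ml/kg Gmnn had only 2 values and Tyms 3, and groups with fewer values overlap less readily.

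Cdk1 was 3.66, 3.03, 3.64, 3.30 and 3.28 in saline and 3.46, 3.67, 3.29, 3.12 and 3.29 at 10 ml/kg corn oil, a difference of -0.01 ± 0.14 (limma adjusted p = 0.961). Ccnb1, its mitotic cyclin, was 1.82, 1.16, 1.81, 1.52 and 1.61 in saline and 1.81, 1.85, 1.59, 0.99 and 1.12 at 10 ml/kg corn oil. The 10 ml/kg arrays of slide 3 were high for Ccnb1 and those of slide 5 low, and the difference was -0.12 ± 0.17 (limma adjusted p = 0.678). Over the mitotic group the difference of 10 ml/kg corn oil from saline ran from -0.36 for Cenpa, the centromeric histone, to 0.22 for Nusap1, a spindle protein. Neither passed (limma adjusted p of 0.136 and 0.451), and 8 of 18 were above 0. Blocking on slide brought Cenpa to 0.0056 and Nusap1 to 0.37, with 16 of 18 above 0 and none past the threshold, and within slide 3 Cenpa differed by 0.12.

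**Figure D5:**
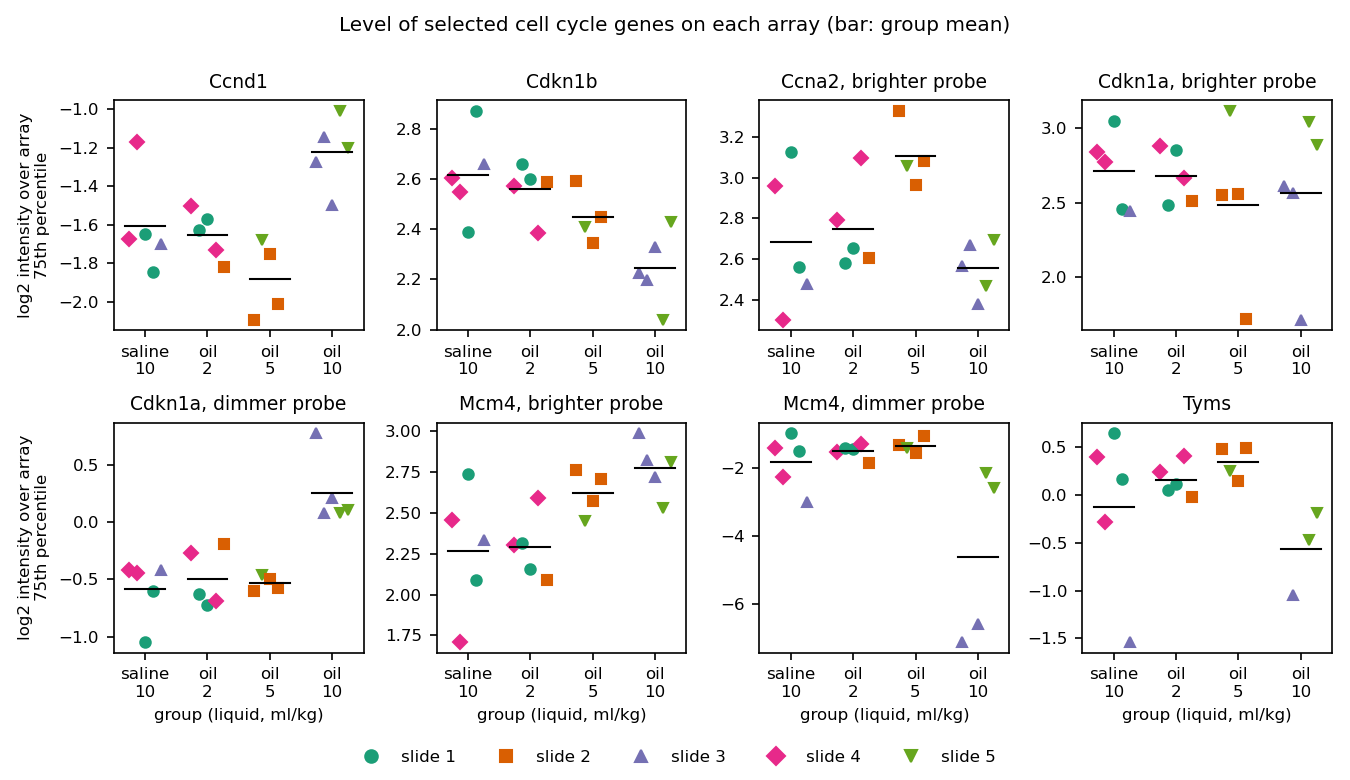
Log2 intensity relative to the 75th percentile of the array (vertical axis) on each array for Ccnd1, Cdkn1b, Ccna2, Cdkn1a, Mcm4 and Tyms, by group (horizontal axis), with a bar at the group mean and slides by symbol. The 10 ml/kg corn oil arrays lie above all 5 and 2 ml/kg arrays for Ccnd1, and the slide 3 arrays lie low for Tyms and the dimmer Mcm4 probe.

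The middle corn oil volume had small differences of 1 sign in most members, with no member past the threshold. At 5 ml/kg against saline the median of the members was 0.17, with 42 of 47 above 0, and that of all genes was -0.01, with 47.9% above 0. The S phase median was 0.27, with 16 of 16 above 0, and the mitotic median 0.11, with 17 of 18. The members varied together from array to array, so counts of members above 0, here and below, are not counts of separate observations. The members' median was 0.11 to 0.35 and 36 to 43 of the members measured were above 0 over the other settings that kept all 47. Without saline replicate 2 the count was 34 and the median 0.06, and without 5 ml/kg replicate 1 they were 35 and 0.10. Beside this, adipocyte markers had a median difference of 1.85 at 5 ml/kg against saline, with 7 of 8 above 0, and B cell markers -0.54, with 0 of 6. The B cell marker sum was 10.3 in saline replicate 2, 2.18 to 2.63 in the other saline arrays and 2.07 to 2.40 at 5 ml/kg. Saline replicate 2 aside, the groups thus overlapped in this sum. The adipocyte marker sum was 29.0 in saline replicate 2, 4.94 to 8.44 in the other saline arrays and 13.4 to 16.6 at 5 ml/kg. Saline replicate 2 aside, the groups did not overlap in the adipocyte sum. No marker passed the test at 5 ml/kg against saline, and the part of either list in the members' values was not tested. The groups share no slide.

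Against 2 ml/kg, the median at 5 ml/kg was 0.23, with 42 of 47 above 0, and that of all genes was -0.04, with 42.4% above 0. Here 15 of 16 S phase and 18 of 18 mitotic members were above 0. Within slide 2, with 3 arrays against 1, the members' median was 0.32, with 42 above 0. From 5 to 10 ml/kg the median was -0.16, with 10 of 47 above 0, and that of all genes was -0.11, with 37.5% above 0. Blocking on slide gave 3 of 47 members above 0 and quantile scaling 17 of 47, with medians of -0.29 and -0.10. Within slide 5 the members' median was -0.34, with 5 above 0. These comparisons share the 4 arrays at 5 ml/kg, so they do not count as separate observations.

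At 2 ml/kg against saline the median of the members was -0.03, with 17 of 47 above 0, and that of all genes was 0.04, with 63.5% above 0. The S phase median was 0.05, with 11 of 16 above 0, and the mitotic median -0.12, with 1 of 18. This comparison could be read within 2 slides, and they differed in sign. On slide 1 the members' median was -0.24, with 4 above 0, and on slide 4, which held saline replicate 2, it was 0.18, with 41 above 0. At 10 against 2 ml/kg the median was 0.06, with 28 above 0, and that of all genes was -0.19, with 33.1% above 0. Blocking on slide gave 33 members above 0 (median 0.09), and blocking on scan day gave 17 (median -0.03).

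A wider list of 118 replication, mitotic and G1 control genes outside the 52 was read the same way, and 96 of them were tested. At 10 ml/kg corn oil against saline 1 rose and 1 fell, against 6.34% of all genes called. Anapc1, a subunit of the anaphase-promoting complex, rose by 0.74 ± 0.11 (limma adjusted p = 0.000571), and by 0.68 in the slide-blocked fit (limma adjusted p = 0.0216). Cdc7, a kinase that fires replication origins, fell by 0.89 on the log2 scale (SE 0.21, limma adjusted p = 0.0145), and the slide-blocked difference was -0.73 (limma adjusted p = 0.117). From 5 to 10 ml/kg 3 rose and 6 fell, against 7.94% of all genes called. Those that rose with the smallest p-values were Anapc1 (log2 difference 0.82) and Gadd45a (log2 difference 0.46), a growth arrest gene. Those that fell with the smallest p-values were Cdc7 (log2 difference -1.04) and Kif15 (log2 difference -0.93), a mitotic kinesin. None of those 9 passed with slide as a block. From 2 to 10 ml/kg Anapc1 rose, and Cdc7 and Mdm2, the p53 ligase, fell, against 12.5% of all genes called. Blocking on slide ended these calls too, with limma adjusted p of 0.0742, 0.218 and 0.429. No gene of the list passed in the other comparisons, and at 5 ml/kg against saline 83 of 96 were above 0, with a median of 0.17.

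Marker lists showed how the tissue varied beside these values. Of 18 thymocyte markers 15 were tested, among them Cd3e, Cd4, Cd8a, Rag1 and Dntt, and all 15 were well above background on every array. Their summed level, in units of the 75th percentile of the array, was 234 to 322 in saline, 253 to 289 at 2 ml/kg, 237 to 303 at 5 ml/kg and 225 to 303 at 10 ml/kg corn oil. The 6 of 8 B cell markers tested summed to 2.18 to 10.3 in saline, where 10.3 was replicate 2, to 1.85 to 2.51 at 2 ml/kg, to 2.07 to 2.40 at 5 ml/kg and to 3.87 to 4.43 at 10 ml/kg corn oil. Markers of endothelium and fibroblasts (10 of 11 tested) summed to 6.47 to 16.6, 8.95 to 13.0, 7.29 to 13.8 and 12.2 to 18.1 in the same order, and those of thymic epithelium (9 of 11) to 9.80 to 11.4, 8.91 to 12.6, 9.79 to 10.6 and 11.0 to 19.1. Adipocyte markers (8 of 10) summed to 4.94 to 29.0, 7.82 to 17.1, 13.4 to 16.6 and 5.01 to 16.5. Saline replicate 2 gave the 29.0 here and the 16.6 for endothelium and fibroblasts. Granulocyte and mast cell markers (10 of 11) summed to 5.39 to 11.7, 6.65 to 12.0, 8.72 to 14.1 and 9.31 to 27.2, those of macrophages (8 of 8) to 19.7 to 27.3, 21.6 to 26.8, 20.4 to 25.0 and 20.4 to 29.1, and those of erythroid cells (5 of 8) to 1.96 to 2.66, 2.22 to 2.47, 2.39 to 2.68 and 2.29 to 3.21. Of the markers tested, 8 of 9 for epithelium, 9 of 10 for endothelium and fibroblasts, 7 of 10 for granulocytes and mast cells, 4 of 8 for adipocytes and 3 of 5 for erythroid cells were above background on every array, as were all tested for B cells and macrophages. At 10 ml/kg corn oil against saline, 4 granulocyte and mast cell markers, 5 endothelium and fibroblast markers and 1 B cell marker rose and 1 thymocyte marker fell in limma's test, which is 11 of 71 markers against 6.34% of all genes. At 10 against 5 ml/kg 4 granulocyte and mast cell, 3 endothelium and fibroblast, 2 B cell, 1 thymocyte and 1 epithelium marker rose, against 7.94%, and the median of the adipocyte markers was -1.69 with none called. Against 2 ml/kg 12 markers rose and 2 fell, against 12.5%. Blocking on slide left 2 of the 71 markers called, both higher, in each of the 3 comparisons. The part of these markers in the members' values was not tested.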

How the data were processed

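Thymus RNA of 19 rats was amplified, labelled with Cy3 and hybridised to 1-colour Agilent arrays, per the labels' protocols. The authors deposited spot intensities on a linear scale made with Feature Extraction 10.7.3.1 and already background-corrected within the array, per the file headers. From the processed intensity, log2 values minus the 75th percentile of the array (1852 to 2954) were computed here. Non-uniform and population-outlier spots were set to missing, and spots of a probe were averaged. Probes were named by matching accessions to RefSeq (GRCr8), which named 17328 of 30367 probes. A probe was kept when at least 4 arrays marked it as well above background and every group had 2 values, and the brightest kept probe of a gene was used.

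Two-sided moderated tests came from limma 3.58.1 (R 4.3.3) on all 19 arrays with a coefficient per group, 15 residual degrees of freedom and Benjamini-Hochberg adjustment over all 22660 genes, with a threshold of 0.05. The fit was tested on simulated data with independent noise and no slide effect, so that test does not bear on the slides. Summaries were made in Python 3.11.15 with pandas 2.3.3 and numpy 2.4.6. The number of arrays and the signal over background limit the precision. Alternatives were slide, scan day and replicate number as blocks, quantile scaling, normexp correction (offset 50, on the median signals, since mean signals were not used here), filters, probe rules, array weights, 2-group fits, leaving out arrays, and the deposited value table. That table held intensities on a linear scale with no centring, with column medians of 117 to 233 and Spearman correlations with the processed intensity of at least 0.998 across probes. The rule behind its scaling between arrays is unknown. Members with statistics were those past the threshold in any comparison and a fixed set of regulators. The rest are given by role, with the highest and lowest member of a role. Some others, such as Tyms and Gmnn, were picked after seeing the results. The members and lists were chosen with earlier results of these data known. The scan day block and the tests of every probe were added after seeing the data.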

Additional observations from a re-analysis of the deposited data

Results flagged for a closer look

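A total of 4 values stood farther from their group than Dixon's criterion at 95% allows, in 84 groups tested, where chance gives about 1 in 20. The second Ccna2 probe was 2.97 in 2 ml/kg replicate 4, against 2.58 in the nearest array. The mitotic median of the same array was 0.18, against -0.15 in the nearest. The second Cdkn1a probe was 0.77 in 10 ml/kg corn oil replicate 1, against 0.21 in the nearest array of its group. Foxm1 was 0.77 in 5 ml/kg replicate 1, against 0.33 in the nearest.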

How the results depend on the processing

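For 10 ml/kg corn oil against saline, where 1 member was called, 0 were called with slide as a block, with slide as a random block (correlation 0.51), with the replicate block, on the deposited table, in the fit of only the groups compared and with scan day as a block. Quantile scaling gave 2, normexp correction 3 and array weights 4, and leaving out single arrays gave 0 to 4. From 5 to 10 ml/kg, where 2 were called, slide and scan day blocks gave 0, array weights gave 8, and the random slide block, the replicate block, quantile scaling, no filter and the mean of probes gave 1, with 1 to 4 when single arrays were left out. From 2 to 10 ml/kg, where 2 were called, the slide, random slide, replicate and scan day blocks, no filter and the 2-group fit gave 0, array weights gave 8, and leaving out arrays gave 0 to 4. The other comparisons gave 0 members in every setting run. Same-numbered arrays had correlations of -0.64 to 0.71 between their deviations from the group means, which do not settle whether replicate numbers pair animals. The best match was the own number in 3 of 5 pairs for 2 ml/kg against saline. It was so in 1 of 4 pairs for 10 against 5 ml/kg, and in 0 pairs for the other comparisons.

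Of the 47 differences from saline at 10 ml/kg, 19 had the other sign with slide as a block, 14 with scan day as a block and 0 to 8 in the other settings, none of them called. Among the regulators given with statistics, with slide as a block Ccnb1 was 0.0021, Cdk1 0.050, Pcna 0.107 and Foxm1 0.10. With the random slide block Cdk1 was 0.018 and Foxm1 0.040. On the deposited table Cdk1 was 0.019 and Foxm1 0.015, and Foxm1 was 0.0077 with quantile scaling and 0.017 with normexp. With scan day as a block Ccnd3 was 0.055, Cdkn1a 0.015 and Mcm2 -0.014. With the mean of probes Cdkn1a was 0.34 and Mcm2 -0.46, and with the filter on all arrays Mcm2 was -0.39. Leaving out single arrays gave -0.22 to 0.0057 for Ccnb1, -0.10 to 0.057 for Cdk1, -0.27 to 0.064 for Cdkn1a, -0.12 to 0.065 for Foxm1 and -0.0012 to 0.19 for Mcm2. The cause was not tested. The group differences of the S phase minus mitotic median moved by less than their spread between arrays under quantile scaling, normexp correction, the deposited table and no filter, and that of 5 against 2 ml/kg went from -0.011 to 0.0058 on the deposited table. The members' median share of variance between slides was 27.9% to 29.0% with the other scalings, against 29.7%.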
